A study of Mus musculus with 15 samples.

Results

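Crypt stem cell and Wnt target genes were followed in RNA sequencing libraries of organoids grown from mouse ileum and exposed to pools of bile acids. The set is a list of named genes, drawn up without a threshold on their values but with earlier results of these data known, and has 10 members, Olfm4, Lgr5, Ascl2, Axin2, Smoc2, Sox9, Rnf43, Znrf3, Myc and Myb, out of 23420 gene symbols in the count files. All 10 were found in all 15 libraries' files, and all 10 passed the filter on low counts that kept 13159 symbols for testing.

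The organoids were epithelial cultures grown from ileal crypts of C57BL/6 mice in Matrigel with IntestiCult medium, at passage 2. On day 14, treatment for 24 h took place in DMEM with 0.2% BSA, a medium for which the labels list no added growth factor, and this holds for every group, vehicle included. H10 and H90 organoids received a pool modelled on human bile acids in which 10% (H10) or 90% (H90) of the bile acids were 12α-hydroxylated, M10 and M90 organoids received the mouse-like counterparts, and Vehicle organoids received no bile acids. Each group had 3 libraries, called a, b and c, and the labels do not say whether these came from separate animals or cultures, so p-values measure only the spread between them. The makeup and concentration of the pools are not stated, and a difference between pools is one between whole mixtures. Because treated organoids were sequenced in bulk, fewer cells of a type and less RNA per cell cannot be told apart.

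Total counts ran from 11245807 to 28989526 per library. The organoids carried enterocyte transcripts: Vil1, an actin-bundling protein of the brush border, had 1529 to 3077 CPM (read counts scaled to library totals of equal size, with TMM factors) in the 15 libraries. Foxl1, Gli1 and Grem1, which mark the mesenchyme that supplies Wnt and R-spondin signals in the animal, were at 0 counts in all 15 libraries, whereas the mesenchymal genes Pdgfrb (6.13 to 13.4 CPM) and Vim (2.80 to 6.34 CPM) had reads in every library. The T cell gene Cd8a was at 0 in all 15, and the leukocyte genes Ptprc (0.271 to 2.56 CPM), Cd68 (1.02 to 3.25 CPM) and Itgam (3.14 to 6.76 CPM) were low but present in every library. The libraries also fell into a pair of sets that the groups do not explain and for which the labels name no batch. The liver transcript Mup20 had, as CPM of plain library totals without TMM factors, 23.0 to 35.9 in 7 libraries (set 1: Vehicle, H10 and H90 a) and 0.356 to 0.583 in 8 (set 2: H90 b and c, M10 and M90). Library set and group can be separated only through H90, and values with library set as a term in the model are given beside the results they change.

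Intestinal crypts renew from stem cells at their base, and canonical Wnt signalling maintains these cells. When Wnt binds its receptors, β-catenin escapes the destruction complex, enters the nucleus and activates TCF-bound genes. Some targets, such as Axin2, Rnf43 and Znrf3, encode proteins that dampen the pathway again, whereas R-spondins, bound by Lgr5 and its relatives, remove Rnf43 and Znrf3 from the cell surface. Bile acids reach the ileum in high amounts and are taken up and sensed by its epithelium.

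Promoter sequences are shown for Axin2 and Myb, whose levels followed the same pattern over the pools, and for Ascl2, which did not fall in H90. RefSeq windows on GRCm38.p6 matched 5 of the 10 members (Olfm4, Ascl2, Axin2, Rnf43 and Myb), and each window printed here runs from 250 bases before the transcription start to 30 bases after it. The windows are Axin2 at chr11:108920099-108920378, plus strand, Ascl2 at chr7:142969235-142969514, minus strand, and Myb at chr10:21160955-21161234, minus strand. Each is written 5′ to 3′ on the gene's strand, with capitals marking the TCF core CTTTGA or CTTTGT, searched on both strands as exact letters. The forms share their first 5 letters and cannot match at the same place on 1 strand.
Axin2: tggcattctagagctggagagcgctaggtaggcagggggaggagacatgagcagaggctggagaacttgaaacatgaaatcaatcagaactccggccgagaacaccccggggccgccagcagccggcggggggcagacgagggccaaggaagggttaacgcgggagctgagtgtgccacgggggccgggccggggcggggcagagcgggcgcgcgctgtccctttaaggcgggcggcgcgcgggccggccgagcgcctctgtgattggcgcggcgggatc
Ascl2: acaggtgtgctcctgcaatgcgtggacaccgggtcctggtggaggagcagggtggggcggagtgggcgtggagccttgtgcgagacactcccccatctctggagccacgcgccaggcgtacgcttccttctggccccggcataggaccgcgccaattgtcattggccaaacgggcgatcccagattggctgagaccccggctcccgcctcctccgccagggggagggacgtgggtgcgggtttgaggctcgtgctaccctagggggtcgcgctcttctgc
Myb: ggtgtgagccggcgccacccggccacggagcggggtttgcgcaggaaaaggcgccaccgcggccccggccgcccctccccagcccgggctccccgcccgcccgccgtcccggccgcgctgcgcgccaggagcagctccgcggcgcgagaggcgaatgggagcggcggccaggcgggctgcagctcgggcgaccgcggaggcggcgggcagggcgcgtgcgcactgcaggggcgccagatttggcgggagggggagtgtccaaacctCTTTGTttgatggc
Of the members' windows, Myb's held 1 core (CTTTGT on the gene's strand, 16 bases after the start) and the others held none. Among all 32817 windows of this length, 29.9% held either form, 15.2% CTTTGA and 17.9% CTTTGT. A match or its absence in this window is a description of the letters alone.

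The 10 genes were lower than in vehicle in most pools, with H90 the exception. In H10, 10 of 10 fell (edgeR quasi-likelihood test with p-values adjusted by Benjamini-Hochberg across the 13159 genes, called under 0.05, as everywhere below), against 24.5% of all tested genes. In H90, 6 of 10 fell, against 9.86% of all tested genes; Ascl2, Rnf43, Znrf3 and Myc did not pass. In M10, 10 of 10 fell, against 33.3% of all tested genes. In M90, 9 of 10 fell, against 28.5% of all tested genes, and Ascl2 did not pass. For the mean of the 4 pools minus vehicle, 10 of 10 fell, against 30.3% of all tested genes. The median log2 difference of the members was -1.35 with H10, -0.50 with H90, -1.56 with M10 and -1.39 with M90, and that of all tested genes lay between -0.03 and 0.00. CPM ranges of pool and vehicle libraries did not overlap, with the pool lower, for 10 members in H10 (against 30.8% of all tested genes), 7 in H90 (17.9%), 10 in M10 (35.4%) and 10 in M90 (33.8%). These 4 comparisons share the vehicle libraries and are not independent of each other.

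With library set as a term in the model, the falls in H10 and M10 still numbered 10 of 10 each, those in M90 numbered 8 and those in H90 numbered 2 (Olfm4 and Smoc2). Of the 6 falls in H90, Lgr5 then had adjusted p = 0.341, Axin2 0.105, Sox9 0.226 and Myb 0.0836. Within set 1, where H90 has 1 library that is assumed to vary like the other groups, 4 members were lower in H90, and Lgr5 and Sox9 were not. The term rests on H90 alone, since every other group lies in 1 set. Calls among all tested genes, in either direction, also dropped with the term. They went from 2840 to 1069 in H90 minus vehicle and from 7199 to 3958 in M90 minus vehicle. These totals are not split by direction, so the member counts with the term or within set 1 have no matching share of all tested genes.

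**Figure D1:**
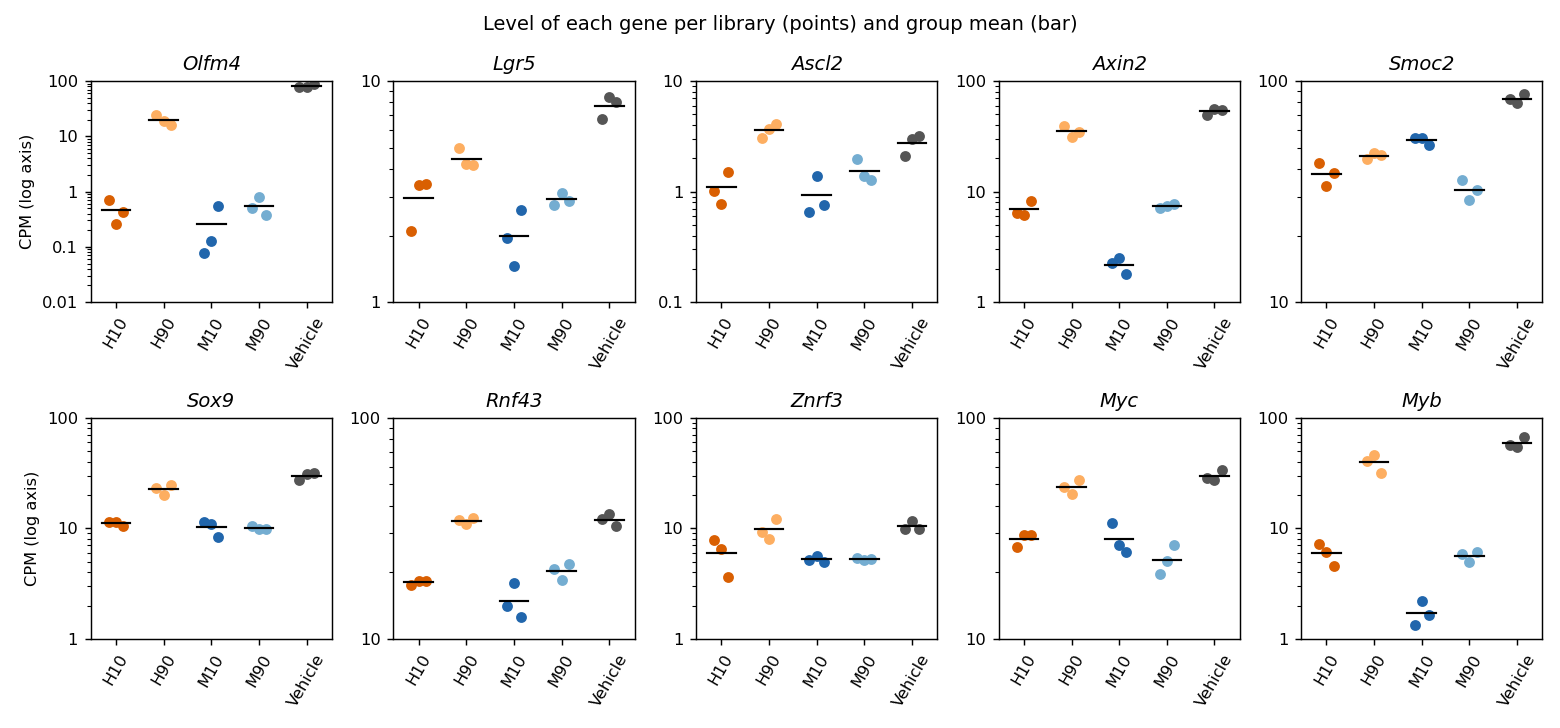
CPM of each gene on a log axis in the 15 libraries (points) with the group mean (bar), groups in the order H10, H90, M10, M90 and Vehicle. Olfm4, Axin2 and Myb span the widest ranges, H90 is the highest pool for each gene other than Smoc2, and Smoc2 is highest among the pools in M10.

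Among markers of the crypt base, Olfm4 changed most. It encodes olfactomedin 4, a secreted glycoprotein abundant in stem cells of the small intestine (chr14:79984081-80023139, plus strand). It had 0.700, 0.260 and 0.431 CPM with H10, 24.8, 18.6 and 16.3 with H90, 0.0766, 0.128 and 0.560 with M10 and 0.502, 0.782 and 0.385 with M90 (libraries a, b and c), against 78.5, 78.4 and 87.4 in vehicle. No pool library reached the lowest vehicle library, and the 3 H90 libraries lay above every other pool library. In raw reads these were 13, 5 and 11 counts in H10, 2, 3 and 11 in M10 and 10, 18 and 9 in M90, against 1348, 2297 and 2032 in vehicle. Levels were thus at or under the counting floor of 3 counts in M10 a and b, and the M10 mean of 0.255 ± 0.266 CPM (SD, n = 3) rested mostly on M10 c. Relative to vehicle, Olfm4 fell 175-fold in H10 (log2 -7.45 ± 0.252 (SE), adjusted p = 2.6e-20) and 4.05-fold in H90 (log2 -2.02 ± 0.160 (SE), adjusted p = 5.94e-11). It fell 342-fold in M10 (log2 -8.42 ± 0.273 (SE), adjusted p = 2.78e-21) and 145-fold in M90 (log2 -7.18 ± 0.243 (SE), adjusted p = 1.86e-20). Without M10 c, the log2 difference of M10 from vehicle was -9.58, outside the 95% interval of -8.98 to -7.86 from all libraries. The SE values were derived from the F statistic of the test and can understate the uncertainty at these few counts. For M90 minus M10 the SE was 0.526. The M10, H10 and M90 levels, in that order the lowest, did not differ from their neighbours (adjusted p = 0.186 and 0.77), whereas M90 lay below H90 (adjusted p = 8.38e-16).

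Lgr5, the R-spondin receptor that marks cycling stem cells (chr10:115450311-115587780, minus strand), had a low level throughout. Its CPM was 2.10, 3.38 and 3.41 with H10, 4.97, 4.23 and 4.15 with H90, 1.95, 1.45 and 2.60 with M10 and 2.76, 3.13 and 2.87 with M90, against 6.70, 8.44 and 8.08 in vehicle. Every pool library was below every vehicle library, and the H90 libraries were above all other pool libraries. The fall was 2.60-fold in H10 (log2 -1.38 ± 0.265 (SE), adjusted p = 3.65e-05), 1.73-fold in H90 (log2 -0.79 ± 0.260 (SE), adjusted p = 0.0245) and 3.89-fold in M10 (log2 -1.96 ± 0.274 (SE), adjusted p = 7.85e-08). M90 was 2.65-fold below vehicle (log2 -1.41 ± 0.265 (SE), adjusted p = 2.36e-05), with adjusted p = 0.061 when library set was a term. The H90 call was lost on leaving out H90 b, H90 c, Vehicle b or Vehicle c (adjusted p = 0.07, 0.0612, 0.102 and 0.0728). No neighbours among the pools, ordered M10, M90, H10 and H90 from low to high, differed past the threshold (adjusted p = 0.115, 0.972 and 0.091).

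Ascl2, a basic helix-loop-helix factor that specifies the stem cell state (chr7:142966829-142969264, minus strand), rested on few reads, with 15 to 87 counts per library. It had 1.02, 0.780 and 1.49 CPM with H10, 3.05, 3.69 and 4.06 with H90, 0.651, 1.37 and 0.764 with M10 and 1.96, 1.39 and 1.28 with M90, against 2.10, 2.97 and 3.18 in vehicle. H90 had the highest mean of the 5 groups, and its range overlapped that of vehicle. Ascl2 fell with H10 (log2 -1.31 ± 0.410 (SE), adjusted p = 0.0076) and with M10 (log2 -1.57 ± 0.415 (SE), adjusted p = 0.00122). In H90 the log2 difference was 0.37 with a 95% interval of -0.41 to 1.16, and in M90 it was -0.84 (interval -1.65 to -0.03, adjusted p = 0.0726). DESeq2 called the M90 difference (adjusted p = 0.043). On the mean of the pools the call (adjusted p = 0.0161) was lost without Vehicle b (0.0768), without Vehicle c (0.0976) and with library set as a term (0.087).

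Smoc2, a secreted calcium-binding matrix protein of the stem cell signature (chr17:14279506-14404790, plus strand), went by another order than the rest. CPM was 42.7, 33.4 and 38.4 with H10, 44.4, 47.3 and 46.2 with H90, 55.2, 55.1 and 51.2 with M10 and 35.6, 29.0 and 32.0 with M90, against 82.7, 79.3 and 87.7 in vehicle. The M10 libraries were the highest of the pools, while M10 had the lowest mean for Olfm4, Lgr5, Ascl2, Axin2, Rnf43, Znrf3 and Myb. The fall was 2.18-fold in H10 (log2 -1.13 ± 0.0851 (SE), adjusted p = 5.98e-14), 1.81-fold in H90 (log2 -0.86 ± 0.0849 (SE), adjusted p = 4.33e-10), 1.55-fold in M10 (log2 -0.63 ± 0.0830 (SE), adjusted p = 2.59e-08) and 2.59-fold in M90 (log2 -1.37 ± 0.0859 (SE), adjusted p = 2.41e-16). From low to high the order was M90, H10, H90, M10 and Vehicle. M90 and H10 did not differ past the threshold (adjusted p = 0.0542), and each later neighbour was higher than the one before it (adjusted p = 0.0142, 0.0208 and 2.59e-08). The H90 minus H10 step (log2 0.27) was not called with library set as a term (adjusted p = 0.189), within set 1 (0.11), without H10 b (0.141) or without H90 b (0.0518). The step between H90 and M10 was small, log2 0.23 for M10 minus H90, was 0.00 with library size as the only scaling, and was not called with library set as a term (adjusted p = 0.0765), within set 2 (0.0736) or without H90 a (0.0753), M10 a (0.0619) or M10 b (0.0576).

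Axin2, a scaffold of the β-catenin destruction complex and a general readout of canonical Wnt signalling, changed in steps (chr11:108920349-108950783, plus strand). Its CPM was 6.36, 6.19 and 8.27 with H10, 39.6, 31.4 and 34.6 with H90, 2.26, 2.52 and 1.78 with M10 and 7.13, 7.34 and 7.70 with M90, against 49.6, 55.5 and 55.1 in vehicle. M10 libraries were below all others, H10 and M90 overlapped, and H90 lay between these and vehicle with no overlap. Axin2 fell 7.64-fold in H10 (log2 -2.93 ± 0.134 (SE), adjusted p = 3.21e-20), 1.51-fold in H90 (log2 -0.60 ± 0.118 (SE), adjusted p = 0.000205), 24.2-fold in M10 (log2 -4.60 ± 0.153 (SE), adjusted p = 5.83e-25) and 7.22-fold in M90 (log2 -2.85 ± 0.133 (SE), adjusted p = 3.69e-20). H10 and M90 did not differ past the threshold (adjusted p = 0.79), and the other neighbours in the order did (adjusted p = 2.96e-10, 2.6e-16 and 0.000205).

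Rnf43 and Znrf3 encode related membrane ubiquitin ligases that clear Frizzled receptors (chr11:87662722-87735539, plus strand; chr11:5276324-5444847, minus strand). Rnf43 had 17.6, 18.2 and 18.3 CPM with H10, 34.6, 33.1 and 35.1 with H90, 14.1, 17.8 and 12.5 with M10 and 20.7, 18.4 and 21.9 with M90, against 34.7, 36.8 and 32.3 in vehicle. The H90 and vehicle ranges overlapped and the other pools lay below both. It fell 1.92-fold in H10 (log2 -0.94 ± 0.115 (SE), adjusted p = 9.77e-09), 2.34-fold in M10 (log2 -1.22 ± 0.116 (SE), adjusted p = 1.02e-11) and 1.70-fold in M90 (log2 -0.77 ± 0.114 (SE), adjusted p = 4.1e-07). In H90 the log2 difference was -0.01, with a 95% interval of -0.24 to 0.21. Znrf3 ranged from 3.61 to 7.87 CPM with H10, 8.02 to 12.1 with H90, 4.99 to 5.59 with M10 and 5.17 to 5.42 with M90, against 9.76 to 11.7 in vehicle. Its fall was 1.76-fold in H10 (log2 -0.82 ± 0.219 (SE), adjusted p = 0.00202), 1.99-fold in M10 (log2 -0.99 ± 0.219 (SE), adjusted p = 0.000158) and 1.98-fold in M90 (log2 -0.98 ± 0.219 (SE), adjusted p = 0.000242). Its difference in H90 was log2 -0.11 (95% interval -0.54 to 0.33).

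The transcription factors Sox9, Myc and Myb act in proliferating crypt cells. Sox9, needed for Paneth cells and for the crypt base (chr11:112782224-112787760, plus strand), had 10.5 to 11.5 CPM with H10, 20.1 to 24.4 with H90, 8.40 to 11.5 with M10 and 9.82 to 10.5 with M90, against 27.1 to 31.8 in vehicle. M10 overlapped both H10 and M90, these 3 pools lay below H90, and H90 lay below vehicle. Sox9 fell 2.70-fold in H10 (log2 -1.43 ± 0.134 (SE), adjusted p = 1.6e-11), 1.34-fold in H90 (log2 -0.42 ± 0.129 (SE), adjusted p = 0.016), 2.91-fold in M10 (log2 -1.54 ± 0.134 (SE), adjusted p = 1.06e-12) and 2.98-fold in M90 (log2 -1.58 ± 0.135 (SE), adjusted p = 1.29e-12). The H90 call was lost without H90 b, Vehicle b or Vehicle c (adjusted p = 0.0905, 0.0666 and 0.0712).

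Myc, a Wnt target that drives growth and cell cycle entry (chr15:61985391-61990374, plus strand), had 25.9, 29.6 and 29.4 CPM with H10, 48.7, 45.2 and 52.1 with H90, 33.3, 26.5 and 24.7 with M10 and 19.6, 22.4 and 26.5 with M90, against 53.2, 52.3 and 57.8 in vehicle. All pool libraries lay below all vehicle libraries, though the gap to H90 was narrow. Myc fell 1.92-fold in H10 (log2 -0.94 ± 0.106 (SE), adjusted p = 1.53e-09), 1.93-fold in M10 (log2 -0.95 ± 0.105 (SE), adjusted p = 5.98e-10) and 2.38-fold in M90 (log2 -1.25 ± 0.107 (SE), adjusted p = 1.63e-12). The H90 difference was log2 -0.16 (95% interval -0.37 to 0.05, adjusted p = 0.286).

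Myb, a factor that keeps crypt progenitors dividing (chr10:21124935-21160984, minus strand), had 7.17, 6.08 and 4.55 CPM with H10, 40.4, 46.4 and 31.9 with H90, 1.34, 2.22 and 1.63 with M10 and 5.88, 4.91 and 6.07 with M90, against 56.6, 54.6 and 66.6 in vehicle. The groups held the same places as for Axin2: M10 lowest, H10 and M90 overlapping, H90 next and vehicle highest. The fall was 10.1-fold in H10 (log2 -3.34 ± 0.157 (SE), adjusted p = 6.35e-19), 1.49-fold in H90 (log2 -0.58 ± 0.134 (SE), adjusted p = 0.00165), 34.3-fold in M10 (log2 -5.10 ± 0.183 (SE), adjusted p = 8.32e-23) and 10.5-fold in M90 (log2 -3.40 ± 0.157 (SE), adjusted p = 2.55e-19). Exons of Olfm4, Axin2 and Myb overlap those of other annotated genes in GENCODE vM21 (Gm6999 on the same strand by 153 bases, Gm11670 on the opposite strand by 209 and Gm26577 on the opposite strand by 559). None of these neighbours has a row in the count files, and the strand setting of the counting was not given, so reads from them could not be told apart.

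**Figure D2:**
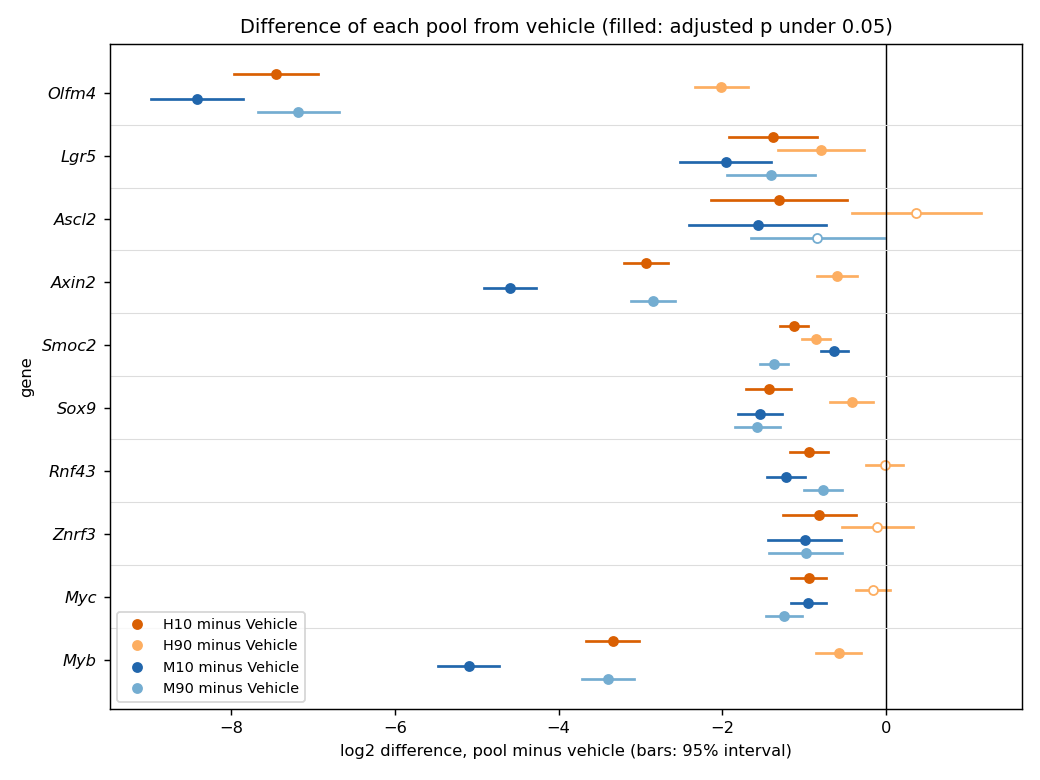
Log2 difference of each pool from vehicle (x axis) for the 10 genes (y axis), with 95% intervals as bars, filled points for adjusted p under 0.05 and open points for differences that did not pass. Open points are Ascl2, Rnf43, Znrf3 and Myc in H90 and Ascl2 in M90, and the H90 point lies nearest 0 for each gene other than Smoc2.

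Between genes, levels were compared per kilobase of merged exons. In M10, Myc (10.4 CPM per kb) and Smoc2 (7.75) had the highest levels and Olfm4 (0.0861) the lowest. In vehicle, Olfm4 had 27.5 CPM per kb, followed by Myc (20.0), Smoc2 (12.0), Axin2 (9.70), Sox9 (7.25), Myb (6.63) and Rnf43 (5.28). Ascl2 (1.69), Znrf3 (1.32) and Lgr5 (0.754) were the lowest. The least abundant of the 10 per kilobase in M10 was thus the most abundant in vehicle. Olfm4 was also the lowest of the 10 in H10 (0.157 CPM per kb) and M90 (0.188), but not in H90 (6.72).

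The next comparison asked how the 12α-hydroxylated share mattered within each species model. In human-like pools, 9 of 10 members were higher in H90 than in H10, against 18.2% of all tested genes, and Lgr5 was not called (log2 0.59, adjusted p = 0.091). The log2 difference was 5.44 ± 0.267 for Olfm4, 2.76 ± 0.158 for Myb and 2.33 ± 0.134 for Axin2. Ascl2 followed at 1.69 ± 0.413, and Sox9, Rnf43, Myc, Znrf3 and Smoc2 ran from 1.01 down to 0.27. Within set 1, 8 members were called higher: Lgr5 then passed (adjusted p = 0.0468), and Smoc2 (0.11) and Znrf3 (0.0512) did not. With library set as a term, 7 were called higher, again without Smoc2 (adjusted p = 0.189) and Znrf3 (0.117). The share of 18.2% belongs to the model without the term, and no such share is given for set 1 or with the term. Znrf3 was also not called without H10 c (0.143) or without H90 c (0.0686).

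In mouse-like pools the same step had mixed directions. M90 was higher than M10 for 3 of 10 members (Axin2, Rnf43 and Myb), against 21.3% of all tested genes, and lower for 2 (Smoc2 and Myc), against 20.0%. These counts were near the shares of all tested genes. Axin2 had log2 1.74 ± 0.166, Myb 1.70 ± 0.206 and Rnf43 0.46 ± 0.118. Smoc2 fell by 0.74 on the log2 scale (SE 0.0864). Myc had log2 -0.30 (adjusted p = 0.024), and this call was lost without M10 a (0.282), without M90 a (0.17), without M90 b (0.0744) and with library size as the only scaling (0.162). Olfm4 did not pass (log2 1.24, adjusted p = 0.0594) but passed without M10 c (log2 2.40, adjusted p = 0.0016). It also passed with library set as a term (adjusted p = 0.0369), with DESeq2 (0.0306), with library size as the only scaling (0.039), with no filter on low counts (0.0124) and without H90 a (0.0367), H90 c (0.0488) or M90 c (0.0416).

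The interaction tests whether the step between the 90% and the 10% pool differed between mouse-like and human-like pools. It was called for 5 of 10 members, each with a smaller or opposite step in mouse-like pools, against 6.92% of all tested genes called lower. The largest was Olfm4 (log2 -4.20 ± 0.750, adjusted p = 0.000193), which without M10 c was -3.04 with adjusted p = 0.0355. Its raw counts summed to only 16 in M10, 37 in M90 and 29 in H10, so low counts limit the size of both steps. Myc (-1.08 ± 0.153), Myb (-1.06 ± 0.269), Sox9 (-1.05 ± 0.194) and Smoc2 (-1.01 ± 0.123) had adjusted p = 2.47e-06, 0.00567, 0.000156 and 1.38e-07, in that order. Without M10 b the Myb value was -0.83 and did not pass (adjusted p = 0.0599). Axin2 (log2 -0.59, 95% interval -1.03 to -0.15) and Rnf43 (log2 -0.47, interval -0.80 to -0.13) did not pass, with adjusted p = 0.064 and 0.051. Axin2 passed with library set as a term (adjusted p = 0.0347), with DESeq2 (0.0499) and without H10 c (0.0254), H90 b (0.0417) or M10 c (0.0303). Rnf43 passed with DESeq2 (adjusted p = 0.0364) and without M10 c (0.0136) or M90 c (0.0493). Lgr5 had log2 -0.03, with an interval of -0.84 to 0.77.

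**Figure D3:**
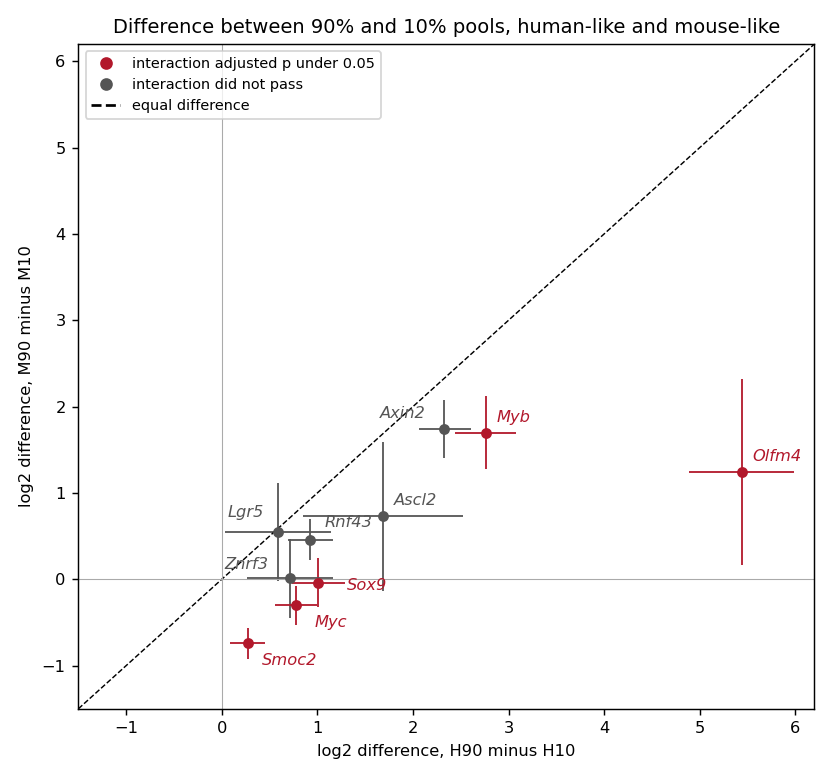
Log2 difference of M90 minus M10 (y axis) against that of H90 minus H10 (x axis) for each of the 10 genes, with 95% intervals as bars, a dashed line where both are equal, and red for genes whose interaction passed. All 10 points lie below the line, and Smoc2 and Myc lie below 0 on the y axis.

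At a matched share of 90%, M90 was lower than H90 for 9 of 10 members, against 19.5% of all tested genes. Olfm4 differed 35.7-fold, Myb 7.07-fold and Axin2 4.77-fold, with Smoc2 the least of the called ones (1.43-fold). Lgr5 was not called (log2 -0.61, 95% interval -1.16 to -0.06) but passed when only library size was scaled for (adjusted p = 0.0292). Ascl2 was not called within set 2 (adjusted p = 0.0506), without M90 b (0.0542) or without M90 c (0.0614). At a matched share of 10%, 2 of 10 members (Axin2 and Myb) were lower in M10 than in H10, against 18.1% of all tested genes, and 1 (Smoc2) was higher, against 18.2%. Neither count was far from the share of all tested genes. Axin2 was 3.17-fold lower and Myb 3.39-fold lower, whereas Smoc2 was 1.41-fold higher. With library set as a term, the Smoc2 difference had adjusted p = 0.0588. Olfm4 did not differ past the threshold between M10 and H10 (log2 -0.96, 95% interval -2.10 to 0.17) but did without M10 c (log2 -2.12, adjusted p = 0.0088).

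Pools that differed in both share and species model were compared to order the levels. Between M90 and H10, 0 of 10 members were called by edgeR, against 7.46% higher and 7.55% lower of all tested genes. DESeq2 also called 0, and at unadjusted p under 0.05 there were 2, Smoc2 (log2 -0.25) and Myc (log2 -0.31). Both passed when only library size was scaled for (adjusted p = 0.0311 for Smoc2 and 0.0367 for Myc), with no filter on low counts (0.0465 and 0.0261) and with the replicate block (0.0453 and 0.0485). The 95% intervals of the 10 log2 differences, M90 minus H10, were narrowest for Smoc2 (-0.42 to -0.07) and widest for Olfm4 (-0.67 to 1.23). Between M10 and H90, 9 members were lower in M10, against 30.3% of all tested genes, and Smoc2 was higher, against 28.3%.

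To see which other genes had a pattern like each member's, the root-mean-square distance between centred log2 CPM profiles over the 15 libraries was computed for 11034 candidate genes, and the nearest pair is named with its distance in log2 units. Nearest to Axin2 were Mcm3 (0.217) and Hells (0.263), a subunit of the replicative helicase and a chromatin remodeller of dividing cells. Nearest to Myb were Hells (0.315) and Dmbt1 (0.327), the last a secreted scavenger-receptor protein, and Axin2 was the nearest member (0.362). Lgr5 lay closest to Ncapd3 (0.206) and Lbr (0.206), a condensin subunit and the lamin B receptor. For Sox9 these were Grk6 (0.153) and Tmpo (0.155), for Myc Tfdp1 (0.157) and Naf1 (0.171), and for Rnf43 Rfc2 (0.134) and Ethe1 (0.148); Tfdp1 is the dimer partner of E2F factors and Rfc2 loads the replication clamp. Smoc2 had Nek6 (0.174) and Shisa2 (0.184), Znrf3 Naa40 (0.212) and Ankrd32 (0.215) and Ascl2 Wdr90 (0.299) and Lsm6 (0.312). Olfm4 had no close match, with Dmbt1 (1.36) and Kcne3 (1.46) nearest. All 20 neighbours were the same with a prior count of 1 in place of 3. These distances describe 15 shared libraries in 5 groups that lie apart, and carry no test.

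Other genes of the pathway were read from lists for the mean of the 4 pools minus vehicle, where 27.7% of all tested genes were higher and 30.3% lower. Of the stem cell signature without the 10 members, 16 fell and 2 rose of 22 tested, with a median log2 difference of -0.57, against -0.01 for all tested genes. The potassium channel gene Kcnq1 had 32.8 CPM with H10, 70.9 with H90, 23.6 with M10 and 38.6 with M90, against 98.7 in vehicle (mean difference log2 -1.37 ± 0.0581, adjusted p = 1.31e-21). The water channel gene Aqp4 had 3.53 CPM with H10, 13.6 with H90, 4.48 with M10 and 6.02 with M90, against 35.2 in vehicle (log2 -2.54 ± 0.128, adjusted p = 8.8e-19). Phlda1, a pleckstrin-homology protein, went the other way, with 96.4 CPM with H10, 47.0 with H90, 130 with M10 and 59.2 with M90, against 24.8 in vehicle (log2 1.62 ± 0.0733, adjusted p = 1.34e-20). Of 20 tested Wnt targets, 13 fell and 2 rose, with a median of -0.53. Tnfrsf19 (log2 -2.80) and Sp5 (log2 0.73) belong to both lists and are counted in each, so the tallies are not separate. Cyclin D2 (Ccnd2) had 115 CPM with H10, 206 with H90, 90.4 with M10 and 80.2 with M90, against 351 in vehicle (log2 -1.61 ± 0.0396, adjusted p = 1.46e-28). Cyclin D1 (Ccnd1) had 17.9 CPM with H10, 67.5 with H90, 5.88 with M10 and 18.4 with M90, against 76.0 in vehicle (log2 -2.00 ± 0.0671, adjusted p = 1.19e-24), and its H90 value did not pass (adjusted p = 0.185). The Eph receptor Ephb2, which positions cells along the crypt, had 25.6 CPM with H10, 63.2 with H90, 18.5 with M10 and 27.2 with M90, against 79.0 in vehicle (log2 -1.40 ± 0.0645, adjusted p = 2.09e-20).

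Ligand genes were mostly too low to test: 8 of the 25 Wnt, R-spondin and secretion genes were kept, of which 2 rose and 1 fell. Of all tested genes, 27.7% were higher and 30.3% lower. Wls, which carries Wnt proteins to the surface, had 37.9 CPM with H10, 41.3 with H90, 38.0 with M10 and 27.9 with M90, against 52.1 in vehicle (log2 -0.54 ± 0.0667, adjusted p = 9.91e-09). The R-spondin Rspo4 had 1.87 CPM with H10, 0.973 with H90, 2.06 with M10 and 2.47 with M90, against 0.840 in vehicle (log2 1.02 ± 0.387, adjusted p = 0.0238), and Wnt7a averaged 0.497 CPM in M10, against 0.0388 in vehicle, near the counting floor; with library set as a term no gene of the list was called higher. Among 16 tested receptor and Dishevelled genes 6 fell and 2 rose, against 30.3% lower and 27.7% higher of all tested genes. Dishevelled 1 (Dvl1) had 202 CPM with H10, 157 with H90, 239 with M10 and 237 with M90, against 114 in vehicle (log2 0.85 ± 0.0420, adjusted p = 1.55e-19), the R-spondin receptor Lgr4 had 132 CPM with H10, 162 with H90, 128 with M10 and 129 with M90, against 181 in vehicle (log2 -0.39 ± 0.0437, adjusted p = 6.92e-10), and the co-receptor Lrp5 had 106 CPM with H10, 120 with H90, 128 with M10 and 97.2 with M90, against 136 in vehicle (log2 -0.28 ± 0.0437, adjusted p = 8.39e-07).

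The destruction complex had 6 higher and 5 lower of 16 tested, against 27.7% higher and 30.3% lower of all tested genes, with a median of 0.02. Without scaling factors (library size only) the split was 1 higher and 9 lower, and this moved the median of all tested genes by -0.15 and the share of called genes that were higher to 30.8%, against 47.7% with TMM. The kinase Gsk3a had 187 CPM with H10, 157 with H90, 224 with M10 and 205 with M90, against 133 in vehicle (log2 0.53 ± 0.0443, adjusted p = 5.68e-13), the ubiquitin ligase adaptor Fbxw11 had a mean difference of log2 0.23 ± 0.0574, adjusted p = 0.000926, and the Apc-binding scaffold Amer1 one of log2 -0.49 ± 0.153, adjusted p = 0.00668. Of 13 nuclear partners of β-catenin, 5 fell and 2 rose. The TCF factor Tcf7l2 rose (log2 0.64 ± 0.0760, adjusted p = 5.26e-09), while the co-repressor Tle1 (log2 -0.51 ± 0.0623, adjusted p = 5.29e-09) and the β-catenin antagonist Cby1 (log2 -0.68 ± 0.128, adjusted p = 1.9e-05) fell. Of the 5 tested secreted and membrane Wnt inhibitors (17 in the list), edgeR and DESeq2 called 0 and none had an unadjusted p under 0.05. Kremen1, a Dickkopf receptor, had 28.3 CPM with H10, 29.9 with H90, 30.2 with M10 and 25.3 with M90, against 27.0 in vehicle, Tpbg a mean log2 difference of 0.08 and Wif1 one of 0.45.

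In the Myc network 5 of 13 tested genes rose and 5 fell, against 27.7% higher and 30.3% lower of all tested genes. Mycn, a close relative of Myc, had 0.834 CPM with H10, 2.47 with H90, 0.307 with M10 and 0.452 with M90, against 6.52 in vehicle (log2 -3.15 ± 0.334, adjusted p = 4.41e-10). Mxd1, a Max partner that opposes Myc, rose (log2 1.01 ± 0.0905, adjusted p = 1.85e-07) with 141 CPM with H10, 104 with H90, 371 with M10 and 150 with M90, against 83.6 in vehicle. Mxd3, another Max partner, had 0.651 CPM with H10, 3.40 with H90, 0.0170 with M10 and 0.827 with M90, against 5.84 in vehicle, so that M10 was near the counting floor. Of the Myb relatives, Mybl2, a cell cycle factor, fell (log2 -2.52 ± 0.134, adjusted p = 1.49e-18) and Mybl1 did not pass (log2 -0.74, adjusted p = 0.115).

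**Figure D4:**
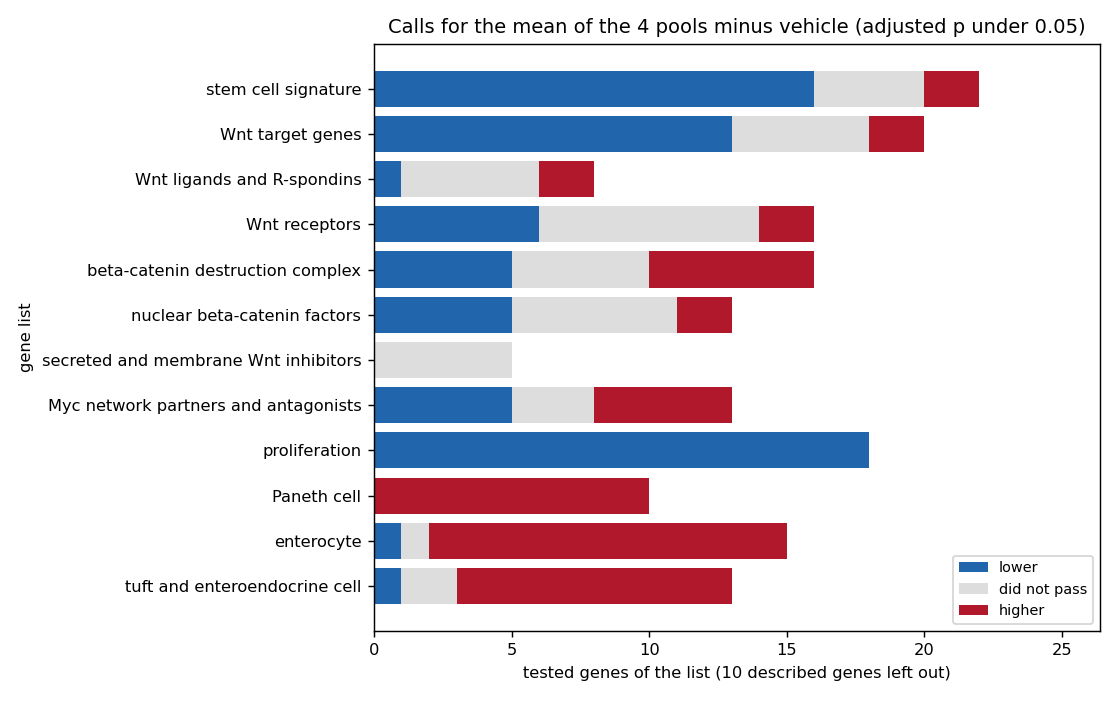
Number of tested genes in each list (x axis) that were lower, did not pass or were higher for the mean of the 4 pools minus vehicle, for pathway and marker lists with 5 or more tested genes (y axis). The proliferation list is lower throughout (18 of 18), the Paneth cell list higher throughout (10 of 10), and the stem cell and Wnt target lists are mostly lower.

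Markers of other cell states also differed between the pools and vehicle. On the mean of the pools the proliferation list went in the members' direction, and the Paneth cell and enterocyte lists mostly in the opposite one. Of all tested genes, 27.7% were higher and 30.3% lower on that mean. All 18 proliferation genes fell in the comparison of all pools with vehicle (median log2 -2.58), and their summed level was 366 to 389 CPM with H10, 1129 to 1300 with H90, 152 to 159 with M10 and 355 to 379 with M90, against 1721 to 1844 in vehicle. M10 was thus lowest, H90 highest of the pools and M90 close to H10, the places that Axin2 and Myb also held. All 10 tested Paneth cell genes rose, with sums of 399 to 439 CPM with H10, 368 to 409 with H90, 442 to 472 with M10 and 406 to 478 with M90, against 163 to 199 in vehicle, while Sox9 fell. Of 15 enterocyte genes 13 rose and 1 fell. Their sums were 28108 to 28937 CPM with H10, 20232 to 20925 with H90, 42401 to 44084 with M10 and 31199 to 32762 with M90, against 19893 to 23531 in vehicle.

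Of 13 tuft and enteroendocrine genes, whose cells can also express Sox9, 10 rose and 1 fell, and their sums were 1893 to 2031 CPM with H10, 1805 to 1913 with H90, 2052 to 2297 with M10 and 2211 to 2447 with M90, against 917 to 1110 in vehicle. Mesenchyme markers summed to 9.51 to 11.0 CPM with H10, 16.2 to 23.2 with H90, 18.8 to 20.6 with M10 and 19.5 to 24.6 with M90, against 9.50 to 12.7 in vehicle. Only 3 of the 12 were tested, 2 of these rose, and Col1a1 among them followed library set. Blood cell markers summed to 5.47 to 10.1 CPM in all libraries, and of 3 tested 0 were called by edgeR or DESeq2 and 0 had an unadjusted p under 0.05. The part of cell makeup in the members' differences was not tested.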

How the data were processed

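Poly-A selected RNA of ileal organoids (15 libraries, 5 groups of 3) was sequenced after TruSeq library preparation, per the labels' protocols. The deposited values are raw read counts per gene symbol, with no normalization by the authors. Per the submitters' processing notes, bcl2fastq 2.17, STAR 2.5.2b, featureCounts 1.5.0-p3 and mm10 (GRCm38) were used, with no role or order stated. The annotation, strand setting and handling of multimapping reads are not given in the sources used here. Coordinates and exon lengths come from GENCODE vM21.

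Genes were filtered with filterByExpr, scaled by TMM and tested with edgeR 4.0.16 (robust quasi-likelihood F test, two-sided, Benjamini-Hochberg adjustment over all 13159 tested genes) with the 5 groups in a single model (10 residual degrees of freedom). A change means adjusted p under 0.05. There were 12 contrasts. CPM uses TMM-scaled totals. The SE is the size of the log2 difference divided by the square root of the F statistic, and the 95% intervals are built from it. Both rest on the spread between libraries and can be too narrow where counts are near 0, as for Olfm4 in M10. The limit of 3 counts used as a floor covers counting error alone. The steps were tested on simulated data. R 4.3.3, DESeq2 1.42.0 and matplotlib 3.10.9 were also used.

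The members and gene lists were chosen with earlier results of these data known. Besides the members, the text names up to 3 tested genes per pathway list with the smallest adjusted p for the mean of the pools minus vehicle, and for each member the 2 nearest genes by profile distance with a mean of at least 2 CPM. Mup20, Col1a1 and the single mesenchyme and leukocyte markers named were chosen after their values were seen, as were the fits with library set as a term or within 1 set. The other alternatives were RLE and library size scaling, no filter on low counts, DESeq2, a replicate block, only the groups compared, and leaving out each library.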

Additional observations from a re-analysis of the deposited data

Results flagged for a closer look

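The step between the 90% and the 10% pool differed between mouse-like and human-like organoid treatments for 5 of 10 genes, by the interaction test of the edgeR model (Benjamini-Hochberg adjusted p under 0.05). All 5 values were negative, against 6.92% of all tested genes called lower. Each value is the log2 difference M90 minus M10 less that of H90 minus H10. It was -4.20 for Olfm4, whose step was 1.24 in mouse-like and 5.44 in human-like pools. Olfm4 counts summed to only 16 in M10, 37 in M90 and 29 in H10, so low counts limit the size of both steps. The interaction value was -1.01 for Smoc2, with steps of -0.74 and 0.27, -1.05 for Sox9, with -0.04 and 1.01, and -1.08 for Myc, with -0.30 and 0.78. Myb had -1.06, with 1.70 in mouse-like and 2.76 in human-like pools. With library set as a term in the model, all 5 calls held. Without M10 b the Myb value was -0.83 and was not called (adjusted p = 0.0599), and without M10 c the Olfm4 value was -3.04 (adjusted p = 0.0355).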

How the results depend on the processing

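Over 12 contrasts and 10 genes, 120 values were recomputed under each full alternative. Calls and directions held for 119 with RLE scaling, 117 with no filter on low counts, 117 with the replicate block, 115 with DESeq2, 109 with library size only and 106 with library set as a term, and for 1729 values, with 71 changed, when single libraries were left out in turn. Letters were not treated as pairs, since residual profiles of libraries with the same letter correlated at only -0.0237 to 0.0829. In 11 of 15 libraries the best match was nevertheless within the letter, where 30 pairs shared a letter and 60 did not, which is a hint from the data and not from the design. The replicate block brought 2 members, Myc and Smoc2, to a call lower in M90 than in H10 (adjusted p = 0.0485 and 0.0453) where there had been 0. The cause of the changes below was not tested.

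Of the members, 2 were lower in H90 than in vehicle with library set as a term, and M10 minus H10 and M10 minus H90 had 0 higher. M10 minus H90 also had 0 higher with library size only and within set 2. M90 minus M10 had 1 lower with library size only, with only the groups compared and within set 2. M10 minus H10 had 4 lower with library size only, and M90 minus H10 had 2 lower with library size only, with no filter and with only the groups compared. Values near 0 changed sign. Rnf43 in H90 minus vehicle was 0.01 within set 1, Sox9 in M90 minus M10 was 0.08 with library size only, and Znrf3 in M90 minus M10 was -0.00 with only the groups compared and within set 2. Myc in M10 minus H10 was 0.01 with RLE scaling and with DESeq2, and 0.00 with the replicate block and with library set as a term, which also gave Lgr5 in M90 minus H10 as 0.22.

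With library set as a term, the genes called were 1069 in H90 minus vehicle (1687 within set 1), 3958 in M90 minus vehicle, 2025 in M10 minus H10 and 365 in M90 minus H10, against 2840, 7199, 4779 and 1975. Only the groups compared gave 2991 in M90 minus H10. With library set as a term, the stem cell signature had 4 lower in H90 and 1 higher on the mean of the pools. Wnt targets had 4 lower and 0 higher in H90 (0 also within set 1), 2 higher in M10 and in M90, and 1 on the mean. The mean also gave 0 ligands higher, 1 receptor higher and 3 lower, 1 destruction complex gene lower and 3 Myc network genes higher. With library size only, the stem cell signature had 1 higher in H10 and on the mean, and Wnt targets 2 higher in M10 and 1 on the mean. On the mean, receptors then had 1 higher and 10 lower, the destruction complex 1 and 9, and nuclear factors 1 and the Myc network 3 higher. With no filter, the stem cell signature had 1 higher in H10, and on the mean ligands had 1 higher and 2 lower and Wnt inhibitors 2 lower. DESeq2 gave Wnt targets 2 higher in H10 and 4 on the mean, and the stem cell signature 2 higher in M10. Wnt targets had 4 higher in H10 within set 1 and with only the groups compared.

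Leaving out 1 library at a time, members higher in M90 minus M10 ran from 3 to 5, lower from 1 to 2, lower in M10 minus H10 from 2 to 4, lower in M90 minus H10 from 0 to 2 and higher in M10 minus H90 from 0 to 1. Genes called in M90 minus H10 ran from 1303 to 2218. In H90 minus vehicle, Rnf43 ran from -0.06 to 0.03 and Znrf3 from -0.27 to 0.01. In M90 minus M10, Sox9 ran from -0.16 to 0.06 and Znrf3 from -0.02 to 0.06. In M10 minus H10, Ascl2 ran from -0.65 to 0.04, Sox9 from -0.20 to 0.01, Znrf3 from -0.45 to 0.07 and Myc from -0.15 to 0.08. In M90 minus H10, Olfm4 ran from -0.06 to 0.64, Lgr5 from -0.22 to 0.09, Znrf3 from -0.44 to 0.08 and Myb from -0.24 to 0.09. The Lgr5 interaction ran from -0.21 to 0.19. Stem cell signature genes higher ran from 1 to 2 in H10, H90, M10 and on the mean, and Wnt targets from 1 to 2 in H10 and 1 to 4 on the mean. On the mean, ligands and receptors higher ran from 1 to 2, destruction complex genes from 3 to 6 higher and 2 to 5 lower, and nuclear factors from 1 to 3 higher and 3 to 5 lower.

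Depth limits the values of Olfm4 in M10 (2, 3 and 11 counts), H10 (13, 5 and 11) and M90 (10, 18 and 9) and of Ascl2 (15 to 87 counts per library).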
